A study of Bos taurus with 12 samples.

Results

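The transcripts described here are the 5960, of the 38030 listed in each deposited table, that had an estimated count of at least 50 in all 6 oocyte libraries of the series. They are called well-measured transcripts below, and members in the plots. The series compared dairy cows that lost body condition after calving (L group) with cows that maintained or gained it (M/G group), by RNA sequencing of oocytes and of the surrounding cumulus cells, in 12 libraries. The oocyte libraries were each made from the total RNA of a single oocyte at metaphase II, freed of its zona pellucida, from 6 cows, with 3 libraries in each group. The cows were lactating, multiparous animals of one commercial herd on one mixed ration, and they differed by group in the change of body condition score, on a 5-point scale, between calving and 27 to 33 d in milk. All of them went through the same hormonal synchronization program, and the oocyte was aspirated from the single follicle that was about to ovulate. The group of each library was taken from the title of its record. The condition field of the same records gives the opposite group for every library, but the study's own list of cows places the animal behind each oocyte library in the group that the title gives.

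A metaphase II oocyte is nearly silent in transcription. It carries a store of maternal mRNA that was laid down while the oocyte grew, and the maturing oocyte translates and degrades that store until the genome of the embryo becomes active. Body condition loss in early lactation releases fatty acids from fat stores into the blood, and the follicle fluid that bathes the oocyte partly follows the blood in its fatty acids. The comparison asks whether this store differed between oocytes of L and M/G cows. Transcripts near the detection limit can look present in one group and absent in the other by sampling alone, so the account here is restricted to transcripts counted well in every library and is about how large a difference the data still allow.

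The well-measured transcripts made up between 69.3 and 71.1% of the estimated counts in 5 of the libraries and 80.5% in M/G replicate 1. The share averaged 70.7 ± 0.358% (SD, n = 3) among L libraries and 73.5 ± 6.10% (SD, n = 3) among M/G libraries. This share is a description, since the transcripts were chosen on counts in the same libraries. Their average abundance over the 6 libraries ran from 0.850 to 122000 TPM (counts made comparable between transcripts by length and between libraries by total), with a median of 36.8. Their median length was 2385 nucleotides, against 2039 for the 17727 other transcripts tested. The deposited tables name transcripts by Ensembl identifier and give no genes, and the gene table matched 0 of these identifiers. Genes, pathways and marker genes of oocytes and cumulus cells were therefore not analysed here, and the label of the cell type was not checked against markers.

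The library totals ran from 8073221 estimated counts, in M/G replicate 1, to 31810285. A count of 50 therefore stood for 7.69 CPM (counts scaled to a common library total after TMM scaling) in M/G replicate 1 and for 1.52 to 2.68 CPM in the other libraries. This library set the membership to a large extent. It held the lowest of the 6 counts for 4392 of the 5960 transcripts, and 3767 further transcripts reached 50 counts in all 5 other libraries but not in it. Leaving any other single library out of the rule would have added between 94 and 350. The 280 transcripts whose lowest count was between 50 and 60 had a median absolute log2 fold change of 0.602, and the 302 just below the limit, with a lowest count between 40 and 50, had 0.614.

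No well-measured transcript passed the threshold between L and M/G oocytes. In edgeR's quasi-likelihood test over the 23686 transcripts whose FPKM (counts per length and total) exceeded 1 in any oocyte library, 0 of the 5959 that could be tested had an adjusted p-value under 0.05, against 0% of all transcripts tested. The remaining well-measured transcript, of 13044 nucleotides, did not reach that FPKM. DESeq2 and limma-voom also gave 0 of these 5959 on the 6 libraries. How many of all transcripts tested passed in these 2 methods is not given here, so that 0 stands without a background. Before adjustment DESeq2 had 77 under 0.05 (1.29%, background 5.41%) and limma-voom 29 (0.487%, background 4.01%). At an unadjusted edgeR p-value under 0.05 there were 17 (0.285%), where 2.18% of all transcripts tested were under that value. Of these, 5 were higher in the L group (background 0.777%) and 12 were lower (background 1.40%). This number was 3 without L replicate 1 (0.0503%, background 1.81%) and 5 without L replicate 3 (0.0839%, background 1.45%). It was 79 without M/G replicate 3 (1.33%, background 3.87%) and 90 without L replicate 2 (1.51%, background 3.09%). Without M/G replicate 1 the adjusted count was again 0 in edgeR and in limma-voom, while DESeq2 placed 23 transcripts under 0.05 (0.386%, background 3.95%), 14 higher and 9 lower in the L group. In edgeR 39 were under 0.05 before adjustment, with 23 higher and 16 lower in the L group (background 1.6% in all, 0.857% higher and 0.739% lower).

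The estimated differences were mostly small. The median log2 fold change of the well-measured transcripts, L over M/G, was 0.025, and the median absolute log2 fold change was 0.417. The quartiles of the estimates were −0.50 and 0.37, and the 5th and 95th percentiles were −1.52 and 0.76. Estimates beyond 2-fold were found for 13.6% of the transcripts (background 48.3%), 103 higher and 709 lower in the L group. Over all 23686 transcripts tested, 5252 were higher and 6177 lower. The tail of the well-measured transcripts toward lower values rested on M/G replicate 1. When that library was left out, the median absolute log2 fold change fell to 0.253, and 5.74% of the estimates were beyond 2-fold (background 40.4%). The split turned to 226 higher and 116 lower. Over all transcripts tested it also turned, to 5311 higher and 4267 lower. The choice of scaling also moved the estimates. With the size factors of DESeq2 in place of TMM, the median over well-measured transcripts was −0.166 and the median over all transcripts tested moved from 0.11 to −0.01. Of the well-measured transcripts, 68 estimates were then more than 2-fold higher and 1141 more than 2-fold lower in the L group. The split over all transcripts tested is not given for this scaling. Without M/G replicate 1 the 2 scalings gave medians of 0.04 and 0.03.

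How tightly these differences were bounded was read from the 95% interval of each log2 fold change, computed from the same edgeR fit. With all 6 libraries the median half-width was 1.85 on the log2 scale, which is 3.60-fold to either side of the estimate. The quartiles of the half-width were 1.47 and 2.39, the narrowest was 0.844 and the widest 5.29. The whole interval lay within 2-fold of no difference for 5 of the 5959 transcripts (background 0.0211%), within 4-fold for 2142 (35.9%, background 9.04%) and within 8-fold for 4421 (74.2%, background 19.9%). Abundant transcripts have narrower intervals by construction, and the rule chose abundant transcripts, so the background share is a reference and not a contrast. An interval wholly beyond 2-fold was found for 1 transcript with the L group higher (background 0.194%) and 1 with it lower (background 0.452%).

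Leaving out M/G replicate 1 narrowed the interval for 5323 of the 5959 transcripts (89.3%), although it left 3 libraries against 2. The median half-width became 1.248, or 2.38-fold. The interval now lay within 1.5-fold of no difference for 107 transcripts (1.8%, background 0.49%), within 2-fold for 1389 (23.3%, background 6.96%) and within 4-fold for 3769 (63.2%, background 22.6%). An interval wholly beyond 2-fold was found for 3 transcripts with the L group higher (background 0.198%) and 1 with it lower (background 0.135%). The median absolute change of an estimate on leaving this library out was 0.342 on the log2 scale, which was larger than the median absolute estimate that was left.

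The width also differed with the transcripts that shared the fit. When the fit was made over the well-measured transcripts alone, with TMM factors from them as well, the median half-width was 1.30 with 6 libraries and 1.09 without M/G replicate 1, and 309 and 1732 transcripts were bounded within 2-fold. With those TMM factors but all transcripts in the fit, the median half-width over 6 libraries was 1.835. What narrowed the intervals was not tested. After adjustment 0 were under 0.05 in both fits, with 101 and 83 under 0.05 before adjustment.

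**Figure D1:**
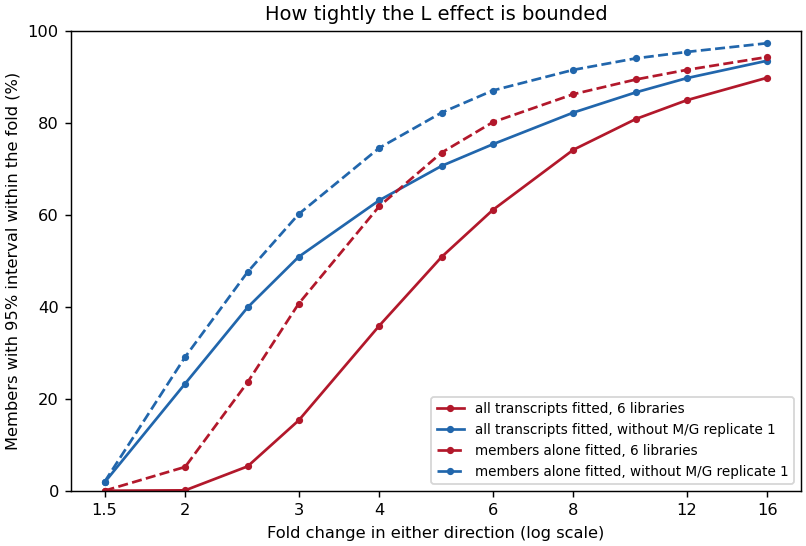
Share of the well-measured transcripts (percent, vertical axis) whose 95% interval of the L over M/G fold change lies wholly within the fold given on the horizontal axis (log scale), for fits over all transcripts (solid) or well-measured transcripts alone (dashed), with 6 libraries (red) or without M/G replicate 1 (blue). At 2-fold the 4 lines stand at 0.0839, 23.3, 5.18 and 29.1%, and at 4-fold at 35.9, 63.2, 61.9 and 74.6%.

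The SD of log2 CPM among the 3 L libraries had a median of 0.403 over the well-measured transcripts, with quartiles of 0.236 and 0.737. Among the 3 M/G libraries the median SD was 0.817, and it was larger than in the L group for 4449 transcripts (74.7%). Between M/G replicates 2 and 3 alone the median SD was 0.353, an estimate from 2 libraries. A count of 50 has a 95% Poisson interval of 37.1 to 65.9, or a counting SD of 0.204 on the log2 scale, and the median counting SD over the well-measured transcripts was 0.041 in the L group and 0.063 in the M/G group. This counting error leaves out the copies made by PCR and the sharing of reads among like transcripts by Kallisto. The observed SD also holds the differences between oocytes, cows and library preparations, which cannot be told apart.

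Pairs of libraries gave the same order. The median absolute difference over well-measured transcripts was 0.308 to 0.564 on the log2 scale (1.24 to 1.48-fold) in the 10 pairs without M/G replicate 1 and 0.982 to 1.30 in the 5 pairs with it. Among the 10 pairs, the 4 within a group had a median of 0.502 and the 6 between groups had 0.460, and the ranges of the pairs within and between groups overlapped. The smallest of all differences, 0.308, was between groups, for L replicate 1 and M/G replicate 3. With L replicate 3 these formed a set of 3 libraries with differences of 0.308, 0.366 and 0.367, while L replicate 2 differed by 0.505 and 0.539 from the other L libraries and M/G replicate 2 by 0.500 from M/G replicate 3. For the median well-measured transcript the difference between group means took 14.8% of the variance among the 6 libraries, against 16.7% over all transcripts tested, and 12% without M/G replicate 1.

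**Figure D2:**
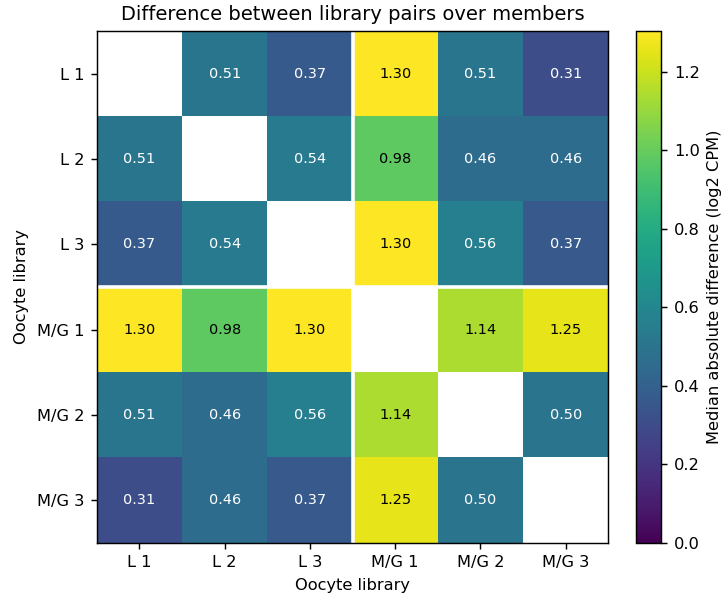
Median absolute difference in log2 CPM over the well-measured transcripts for each pair of oocyte libraries, with white lines between the L and M/G groups. The row and column of M/G replicate 1 hold 0.98 to 1.30, all other pairs 0.31 to 0.56, and the pairs within groups do not stand out from those between groups.

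The spread fell with abundance in the L group. In the lowest quartile of well-measured transcripts by average CPM (4.71 to 30.3 CPM) the median SD was 0.628 in the L group, and in the highest quartile (123 CPM and above) it was 0.277. The counting SD fell from 0.079 to 0.020 between these quartiles. In the M/G group the median SD was 0.833 in the lowest and 0.843 in the highest quartile, and without replicate 1 it fell from 0.550 to 0.229. Interval half-widths followed. They had medians of 2.60, 1.89, 1.55 and 1.34 from the lowest to the highest quartile with all libraries, and 2.32, 1.38, 0.97 and 0.67 without M/G replicate 1. In the highest quartile 986 of 1490 transcripts (66.2%) were then bounded within 2-fold, and in the lowest quartile 0 were.

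**Figure D3:**
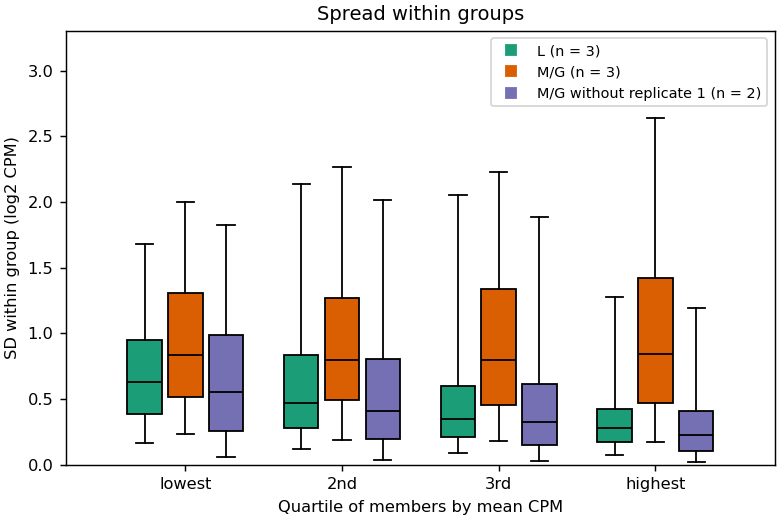
SD of log2 CPM within the L group (green), the M/G group (orange) and the M/G group without replicate 1 (purple) for the well-measured transcripts, by quartile of average CPM. Boxes give the median and quartiles and whiskers the 5th and 95th percentiles. The L medians fall from 0.628 to 0.277 and the M/G medians stay between 0.795 and 0.843.

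The average direction of the L effect also ran with abundance, and this too rested on 1 library. With all 6 libraries the median log2 fold change was −0.32 in the lowest quartile, −0.08 in the second, 0.11 in the third and 0.25 in the highest. With the DESeq2 size factors these medians were −0.56, −0.28, −0.05 and 0.14. Without M/G replicate 1 they were 0.01, 0.03, 0.05 and 0.045. Beside this stands the position of M/G replicate 1 itself, which lay 0.766 above the median of the other libraries on the log2 scale in the lowest quartile and 1.00 below it in the highest. The rule asks for 50 counts in this shallow library as well, so membership itself depended on its level there. Among the 9722 tested transcripts with 50 counts in the other 5 libraries, with no demand on M/G replicate 1, its position against the median of the others was below 0 in every quartile, at −3.74 in the lowest and −1.255 in the highest. By length, the median log2 fold change was −0.13 in the shortest quartile (up to 1540 nucleotides) and between 0.045 and 0.11 in the others, and without M/G replicate 1 it was between 0.01 and 0.06 in all of them.

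**Figure D4:**
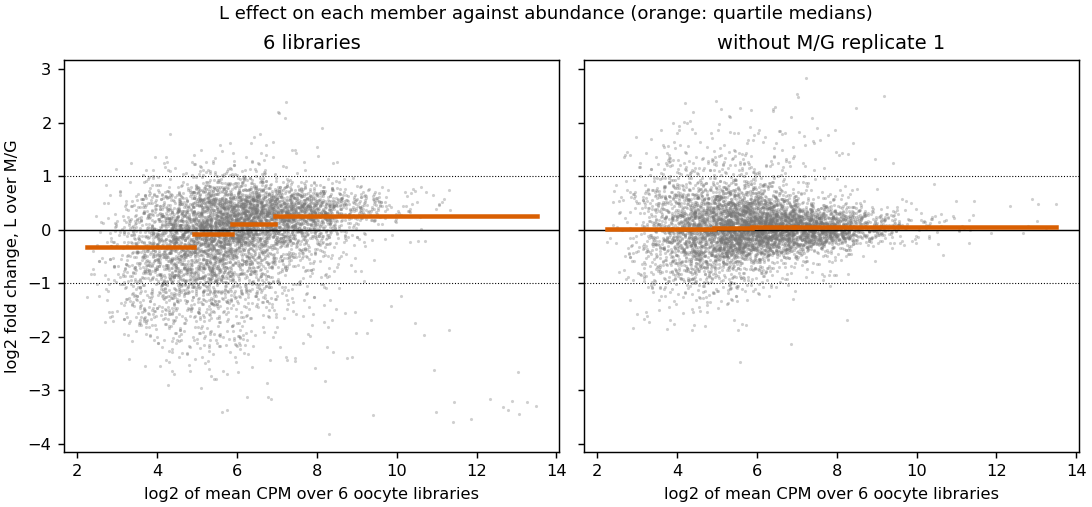
Log2 fold change of L over M/G for each well-measured transcript (grey points) against the log2 of its average CPM, with all 6 libraries (left) and without M/G replicate 1 (right). Orange bars mark the medians of abundance quartiles, which run from −0.32 to 0.25 on the left and from 0.01 to 0.05 on the right, and dotted lines mark 2-fold.

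The 100 most abundant well-measured transcripts held between 11.6 and 37.3% of the counts of a library, each at an average of 674 CPM or more. Their median absolute log2 fold change was 0.520 with all libraries and 0.157 (1.11-fold) without M/G replicate 1, and the median half-width was 1.5 and 0.57. Without that library 72 of the 100 were bounded within 2-fold and 22 within 1.5-fold, and the largest estimate in either direction was 1.25. With it, 14 of the 100 had estimates between −3.58 and −2.61. In M/G replicate 1 these 14 were at 3640 to 59900 CPM and took 32.1% of all counts, and in the other libraries they were at 38.1 to 3390 CPM and took 0.712 to 2.70%. They were short, from 201 to 1821 nucleotides. Without M/G replicate 1 their estimates lay between −0.07 and 1.25. These 14 were picked after their values were seen, and the ranking by average CPM included the library in which they were high. Ranked on the other 5 libraries, a choice also made after seeing the data, the 100 most abundant shared 89 transcripts with those above and held 8 of the 14. Their median absolute log2 fold change was 0.465 with all libraries and 0.142 without M/G replicate 1, and 1 and 80 of them were bounded within 2-fold.

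M/G replicate 1 differed from the other oocytes in both directions. For 32.5% of the well-measured transcripts it lay more than 2-fold outside the range of the other 5 libraries, 773 above and 1163 below it. The same was true of 0.889 to 3.12% of the transcripts in each of the other libraries. A count of 50 in all 6 cumulus libraries was reached by 525 of the 773 transcripts that were high in M/G replicate 1 (67.9%), by 476 of the 1163 that were low in it (40.9%) and by 51.2% of the rest. The average cumulus TPM exceeded that of the other 5 oocytes for 66.5, 1.12 and 17.6% of these sets. Those 5 oocytes also defined the sets, which by itself moves the second comparison in the direction seen, so it is a description only. In the RNA of a single oocyte, RNA from attached cells and a smaller store of the oocyte's own RNA cannot be told apart by such shares. The study's methods took the cumulus cells off with hyaluronidase, washed the oocytes and removed the zona pellucida before lysis. Whether any cells stayed attached, and the part of cumulus RNA in the L effect, were not tested. The median L effect was −1.28 for the 773 transcripts and 0.47 for the 1163, and without M/G replicate 1 it was −0.02 and 0.03. Since that library defined the sets and is part of the M/G average, these signs were fixed by the choice of the sets.

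Groups that do not overlap were counted as a plain reading of the values. The 3 L values lay all above or all below the 3 M/G values for 397 well-measured transcripts (6.66%, background 6.11%). Of these, 224 were higher in the L group (3.76%, background 4.03%) and 173 were lower (2.90%, background 2.09%). The gaps were narrow, with a median of 0.115 on the log2 scale where L was higher and 0.147 where it was lower. In 4 cases with L higher and 1 with L lower, the nearest libraries of the groups were more than 2-fold apart. The same count over all transcripts tested is not given, so these cases have no background. Counted at any gap, the share of well-measured transcripts with separate groups was near the background.

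Of the transcripts higher in the L group, the smallest p-value belonged to ENSBTAT00000084222.1, of 3684 nucleotides. Its estimated counts were 6920, 3857 and 10251 in L replicates 1 to 3 and 481, 703 and 1239 in M/G replicates 1 to 3. The TMM-normalized values were 211, 206 and 338 CPM in the L group and 74, 28.3 and 42.5 CPM in the M/G group. All L values lay above all M/G values, with a gap of 1.48 on the log2 scale that was the widest in this direction. The average was 252 ± 74.9 CPM (SD, n = 3) against 48.3 ± 23.4 CPM (SD, n = 3), and the log2 fold change was 2.38 (SE 0.57, 95% interval 1.05 to 3.72, 5.22-fold). In edgeR the unadjusted p was 0.00479 (adjusted p = 1). Without M/G replicate 1 the log2 fold change was 2.84 (95% interval 1.97 to 3.70), with an adjusted p-value of 1 in edgeR and of 7.65e-09 in DESeq2. It was 1 of the 23 transcripts that DESeq2 placed under 0.05 on those 5 libraries.

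In the other direction, the smallest p-value belonged to ENSBTAT00000083707.1, of 6902 nucleotides. The counts were 758, 488 and 612 in L replicates 1 to 3 and 2716, 4408 and 776 in M/G replicates 1 to 3, or 23.1, 26.1 and 20.2 CPM against 418, 178 and 26.6 CPM. The groups did not overlap, but M/G replicate 3 lay just above the highest L value, with a gap of 0.03 on the log2 scale. The L libraries averaged 23.1 ± 2.96 CPM (SD, n = 3) and the M/G libraries 207 ± 197 CPM (SD, n = 3). The log2 fold change was −3.16 (SE 0.90, 95% interval −5.27 to −1.05), at an unadjusted p of 0.0134 in edgeR (adjusted p = 1), and without M/G replicate 1 it was −2.13 (95% interval −4.09 to −0.17). It was −1.84 in limma-voom on the 6 libraries, −1.52 in limma-voom without M/G replicate 1 and −2.49 with the replicate number as a block. In DESeq2, and in edgeR with the DESeq2 size factors, it was −3.54. With 1 library left out it ran from −3.69 to −2.13.

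The narrowest intervals belonged to abundant transcripts. ENSBTAT00000029285.6, the longest of the well-measured transcripts at 21570 nucleotides, was at 1660, 1590 and 1450 CPM in L replicates 1 to 3 and at 1660, 1640 and 1360 CPM in M/G replicates 1 to 3. The groups overlapped fully, and the averages were 1570 ± 106 and 1550 ± 166 CPM (SD, n = 3 each). Its log2 fold change was 0.02 (SE 0.36, 95% interval −0.83 to 0.86), and without M/G replicate 1 it was 0.07 (95% interval −0.33 to 0.48). Its small estimate changed sign with the scaling and stood at −0.20 with the DESeq2 size factors. ENSBTAT00000024387.5, of 844 nucleotides, had the narrowest interval among transcripts with a lower estimate in the L group. It was at 1480, 1110 and 1530 CPM in the L libraries and at 1440, 1630 and 1700 CPM in the M/G libraries, with a log2 fold change of −0.21 (SE 0.37, 95% interval −1.08 to 0.66), or −0.27 (95% interval −0.76 to 0.22) without M/G replicate 1. Here too the groups overlapped. The interval of ENSBTAT00000024387.5 lay within 2-fold without M/G replicate 1 and not with it. For ENSBTAT00000029285.6 it lay within 2-fold in both fits.

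**Figure D5:**
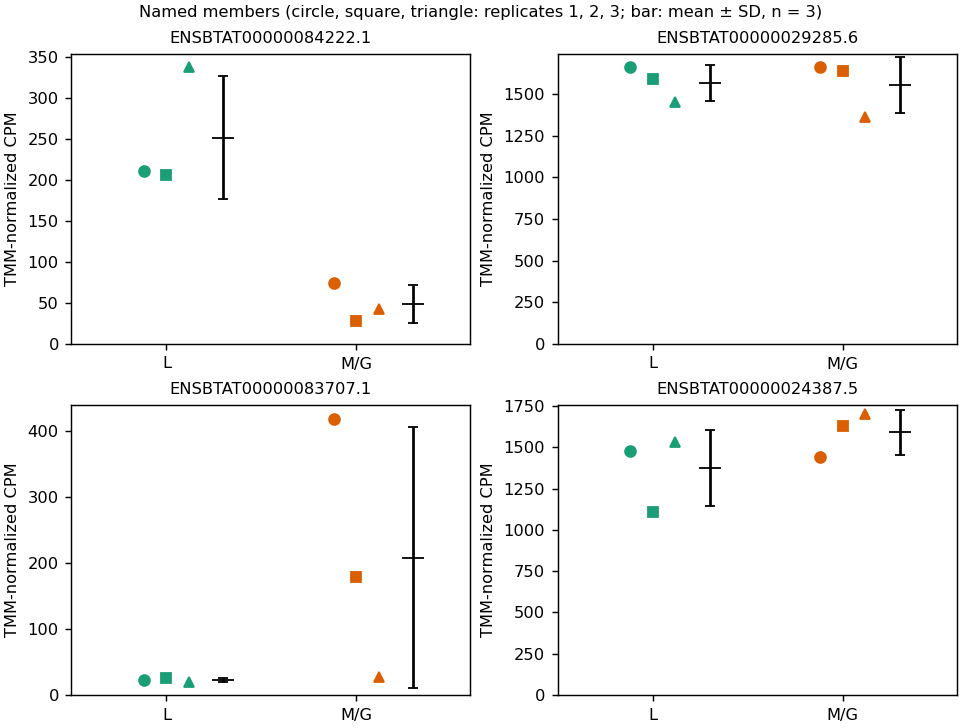
TMM-normalized CPM of the 4 named transcripts in the L (green) and M/G (orange) oocyte libraries, with circles, squares and triangles for replicates 1, 2 and 3 and black bars for the average ± SD (n = 3). ENSBTAT00000084222.1 has L values of 206 to 338 above M/G values of 28.3 to 74, ENSBTAT00000083707.1 has 1 M/G value of 26.6 beside the L values, and the 2 transcripts on the right overlap between groups.

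The L effect on the well-measured transcripts was also compared with that in cumulus cells, in 1 edgeR model over all 12 libraries with the interaction of cell type and group. Both kinds of library came from the same animal for 3 of the cows, which the model did not use. Of the well-measured oocyte transcripts, 3059 (51.3%) also had 50 counts in all 6 cumulus libraries, and 84 had none in any of them. The median absolute log2 fold change of L over M/G in this model was 0.375 in oocytes and 0.437 in cumulus cells. The interaction had an adjusted p-value under 0.05 for 0 of the 5959 transcripts (background 0%) and an unadjusted p-value under 0.05 for 136 (2.28%, background 5.02%). The median half-width of the difference between the cell types was 3.44 on the log2 scale.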

How the data were processed

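Single MII oocytes (6 libraries) and cumulus cells (6 libraries) were sequenced, from a different library kit for each cell type. The methods describe depletion of ribosomal RNA for the oocytes, and for the cumulus cells they name only the kit as different. The authors trimmed the reads with fastp and ran Kallisto 0.44.0 at its standard settings against bovine cDNA from Ensembl, and they had dropped samples with few reads in exons. The deposited tables give, per library, an estimated count, which is not normalized, and a TPM value, scaled for effective length and library total and keeping no depth, for each of 38030 transcripts. Reads shared by like transcripts are divided among them, so a single transcript is less certain than its gene.

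Estimated counts were rounded. FPKM was computed from counts, effective lengths and totals, and transcripts with FPKM over 1 in at least 1 oocyte library were fitted together with R 4.3.3 and edgeR 4.0.16 (TMM, quasi-likelihood F test, no covariate), with Benjamini-Hochberg adjustment over all 23686 and a threshold of 0.05. The 95% interval was the estimate ± the t quantile, at the total degrees of freedom of the fit, times the quasi-likelihood standard error. The spread within groups used log2 CPM with a prior count of 0.5. A difference between cell types was tested as an interaction over 12 libraries. Tests and intervals were also run on simulated data. There all libraries shared a common dispersion and none was set apart, so that run does not cover a library like M/G replicate 1. The alternatives covered limma-voom (limma 3.58.1), DESeq2 1.42.0, the scaling, the filters, the depth, the count of the rule, each library left out and the replicate number as a block. Replicates are libraries from separate cows, and the closest pair of oocyte libraries differed by a median of 0.308 on the log2 scale.

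The rule for well-measured transcripts and the lists were chosen with earlier results of these data known. As the tables pair no identifiers with genes, the transcripts named were, in each direction of the estimate, the one with the smallest p-value and the one with the narrowest interval, and planned lists of genes (oocyte, cumulus, blood, fatty acid oxidation, lipid storage, redox defence, endoplasmic reticulum stress, meiosis and oxidative phosphorylation) were not analysed here.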

Additional observations from a re-analysis of the deposited data

Results flagged for a closer look

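Of 6 measures per library tested over the 6 oocyte libraries, 4 put M/G replicate 1 far from the nearest of the other libraries, by a gap test that flags about 1 in 20 sets by chance. That rate does not apply here, because this library had been singled out in advance and the measures use the counts that chose the transcripts, so the values are a description. The share of its counts on well-measured transcripts was 80.5%, with a gap to the next library of 0.839 of the whole range, where the critical value is 0.625. Its median absolute deviation from the other libraries was 1.19 (1.189) on the log2 scale, with a gap of 0.890 of the range. For 32.5% of the well-measured transcripts it lay more than 2-fold outside all others, with a gap of 0.929. It had 9796 transcripts with at least 50 counts, against 14471 to 16132 in the others, with a gap of 0.738. The measures are not independent of each other, and what set this library apart was not tested.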

How the results depend on the processing

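The number of well-measured transcripts with an adjusted p-value under 0.05 was 0 under every alternative run on 6 libraries and without any single library in edgeR. With M/G replicate 1 left out, a combination added after the data were seen, it was 23 in DESeq2 (0.386%, background 3.95%) and 0 in limma-voom. The interaction with the cell type gave 0 in all 14 alternatives. The median half-width stayed within 1.5 times of 1.85 in the alternatives set at the start, between 1.248 and 2.48 with 1 library left out, and fell to 1.09 (fit over the well-measured transcripts alone), 1.04 (limma-voom) and 0.988 (DESeq2) without M/G replicate 1. The number bounded within 2-fold depended most on the setting. It was 469 with limma-voom (7.87%, background 1.98%), 0 with DESeq2 (background 0%), 24 with the DESeq2 size factors (0.403%, background 0.101%), 13 with TMM factors from the well-measured transcripts (0.218%, background 0.0549%), 1 without the FPKM filter (0.0168%, background 0.00356%), 309 in the fit over these transcripts alone, 11 with libraries thinned to the smallest total (0.185%, background 0.0465%), and 0 to 1389 with 1 library left out, the 1389 without M/G replicate 1 and 0 without any other. Without M/G replicate 1 it was 1732 in the fit over these transcripts alone, 1783 with limma-voom (29.9%, background 9.12%), 2031 with DESeq2 (34.1%, background 10.9%), and 1648 of 9722 (17%, against 23.3%) where the transcripts were also chosen on those 5 libraries. The number under an unadjusted p of 0.05 was 3 to 90 with 1 library left out, 77 with DESeq2 (1.29%, background 5.41%) and 29 with limma-voom (0.487%, background 4.01%). The causes were not tested. The median L effect was −0.165 with DESeq2, −0.166 with its size factors and −0.039 after thinning, and −0.025 to 0.059 with 1 library left out. The median SD was 0.260 to 0.404 in the L group (0.260 without L replicate 2) and 0.356 to 0.887 in the M/G group with 1 library left out, and 0.379 in the M/G group where the transcripts were chosen on 5 libraries. With fewer libraries groups separate more readily by construction. The number that did not overlap was 672 (11.3%, background 11.5%) to 1620 (27.2%, background 22.5%) with 1 library left out, 1445 of 9722 (14.9%, background 12.8%) where the transcripts were chosen on 5 libraries, and 214 of 3353 (6.38%, background 6.11%) at a count of at least 200. The L minus M/G difference in the share of counts was −4.93 to 0.682 points with 1 library left out, and it changed sign, to 0.682, without M/G replicate 1. The log2 fold change of ENSBTAT00000029285.6 changed sign, to −0.20 with DESeq2 and with its size factors, −0.01 with TMM factors from the well-measured transcripts and in the fit over them alone, −0.05 after thinning, −0.06 without L replicate 1 and −0.07 without M/G replicate 3. With 1 library left out it ran from −0.07 to 0.07.

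With the replicate number as a block, 0 transcripts had an adjusted p-value under 0.05, the median half-width was 2.44 and 0 were bounded within 2-fold. Libraries that share a number are of different animals. Correlating what remained after taking off each group mean gave −0.445, −0.020 and 0.390 for numbers 1 to 3, so the numbers do not pair the libraries.

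Intervals assume that each group's libraries vary alike.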
